A study of Mus musculus with 6 samples.

Results

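The comparison of PIASy-WT with non-injected two-cell embryos asked which functions and gene families differ in level once the SUMO E3 ligase PIASy is supplied in excess from the zygote stage. Its members were the genes with at least 1 FPKM (fragments scaled to gene length and library size) in at least 2 of the 4 libraries compared. They numbered 14448 of the 53023 genes in the table, and 10577 of them were protein-coding. Functions and families are described among the 6285 protein-coding genes with a mean of at least 20 fragments over the 4 libraries, called well-counted below. The embryos were of the ICR mouse strain, were produced by in vitro fertilization and were collected at 28 hours post-insemination (hpi). The PIASy-WT embryos had received synthetic mRNA for HA-tagged wild-type PIASy at 100 ng/µl, and the non-injection embryos had received nothing, so the act of injection and the wild-type protein cannot be told apart from these groups alone. Each group had 2 libraries, and each library was a pool of 5 embryos, so a strong change in some embryos and a weaker one in all of them cannot be told apart. The other injected group, PIASy-Mut, received mRNA for a PIASy with a mutated RING finger at the same dose, and its 2 libraries entered the fit to estimate the spread between libraries.

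PIASy belongs to the protein inhibitor of activated STAT family and attaches SUMO, a small ubiquitin-like protein, to nuclear proteins. In the mouse, the embryo begins its own transcription in earnest at the two-cell stage, while messenger RNA stored by the oocyte is cleared. Early transcription includes families used for a short time, such as the Obox homeobox and Zscan4 genes, and housekeeping groups such as those for ribosomes and RNA processing.

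The 4 libraries held between 1130853 and 1363928 fragments on genes. At this depth the precision of a level is limited by its fragments, and intervals from 2 pools cover the spread between these pools only. Pias4, which encodes PIASy, stood at 2.98 and 3.59 FPKM without injection and at 609.9 and 579 FPKM after PIASy-WT injection, where endogenous and injected RNA were counted together (log2 fold change 7.12, standard error 0.26, adjusted P=0.00166). Markers of oocytes and early embryos were present in each library, with 0 of 10 undetected. Of 17 markers of cumulus and granulosa cells, the cells that surround the oocyte, 3 (Amh, Foxl2 and Inhba) had no fragment in any library. Together these 17 took 27 and 31 fragments without injection against 76 in each PIASy-WT library (between 19.8 and 66.1 CPM, fragments scaled to a common library size), mostly of Fn1 and Kitl, and their part in the results was not tested. PIASy-Mut 1, used for the spread, stood apart with 1.28% of its fragments on the mitochondrial genome, beside 5.82% to 8.14% in the 4 libraries compared. Spike-in RNA has 0 entries in the table, so each level is a share of its library.

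Many more well-counted genes fell than rose in PIASy-WT. The test was limma on log2(FPKM + 1), and calls required adjusted P up to 0.05 with a log2 fold change of 1 or more in size. Of the 6285 well-counted protein-coding genes, 846 were lower (13.5%) and 83 were higher (1.32%). Over all 14448 genes tested, 1171 were lower (8.1%) and 299 were higher (2.07%), together 10.2%. At the stricter size of 2, 462 well-counted genes were lower (7.35%) and 8 were higher (0.127%), together 7.48%. Over all genes tested that size gave 4.8% lower and 0.844% higher, together 5.64%. The median log2 fold change of the well-counted genes was -0.07, with quartiles at -1.07 and 0.54. The share of its members that fell stands beside the count of each list below, with the share that rose where any did, to be read against the 13.5% and 1.32% of all well-counted genes, and a share near those values is not a result about the list. Counts by voom, a form of limma for the recovered fragments that weights them by their precision, are given beside several lists, as are counts at an unadjusted P under 0.05. By voom 22.7% of all well-counted genes were lower and 7.32% higher, and at an unadjusted P under 0.05 27.8% were lower and 12.3% higher. Of 56 lists with a well-counted gene, 49 had 0 higher genes by limma, and in 25 of these voom called 1 to 8 higher. List medians moved with the setting as well, and those of 41 of 55 lists moved by over 1.5 times or changed sign in at least 1 alternative. Leaving out non-injection 1, non-injection 2, PIASy-WT 1 or PIASy-WT 2 left 0 genes called by limma, the lone library of that group being assumed to vary like the others, with 1128 to 1308 well-counted genes lower and 218 to 318 higher at an unadjusted P under 0.05. Leaving out PIASy-Mut 1 raised the calls to 1299 lower and 378 higher, and leaving out PIASy-Mut 2 raised them to 1320 lower and 374 higher. Quantile normalization moved the share of higher genes among the calls from 8.93% to 21.3% (685 lower and 185 higher) and the median log2 fold change from -0.07 to 0.14.

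The levels of the called genes are given as a description, since the genes were chosen by these values. For the genes that fell, the median level in non-injection embryos was 41.1 FPKM, against 13.5 FPKM for all well-counted genes and 13.4 FPKM for the genes that rose. Together the 846 lower genes held 16.7% and 17.0% of all fragments without injection, against 4.18% and 3.45% after PIASy-WT injection. The 83 higher genes went from 0.735% and 0.742% to 2.14% and 2.27%. Within PIASy-WT the pools differed a little, since 580 of the 846 lower genes had the lower value in PIASy-WT 2, with a median difference of -0.20 on the log2 scale between the pools. The PIASy-WT libraries lay more than 1 apart on that scale for 53 of the lower genes, and the non-injection libraries for 9. The groups did not overlap in any of the called genes, which the call itself nearly requires with 2 libraries each; over all well-counted genes both PIASy-WT libraries lay below both controls in 42.6% and above them in 35.2%. In 14 of the lower genes both PIASy-WT libraries held at most 3 fragments, so the size of their fold change depends on the pseudocount.

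**Figure D1:**
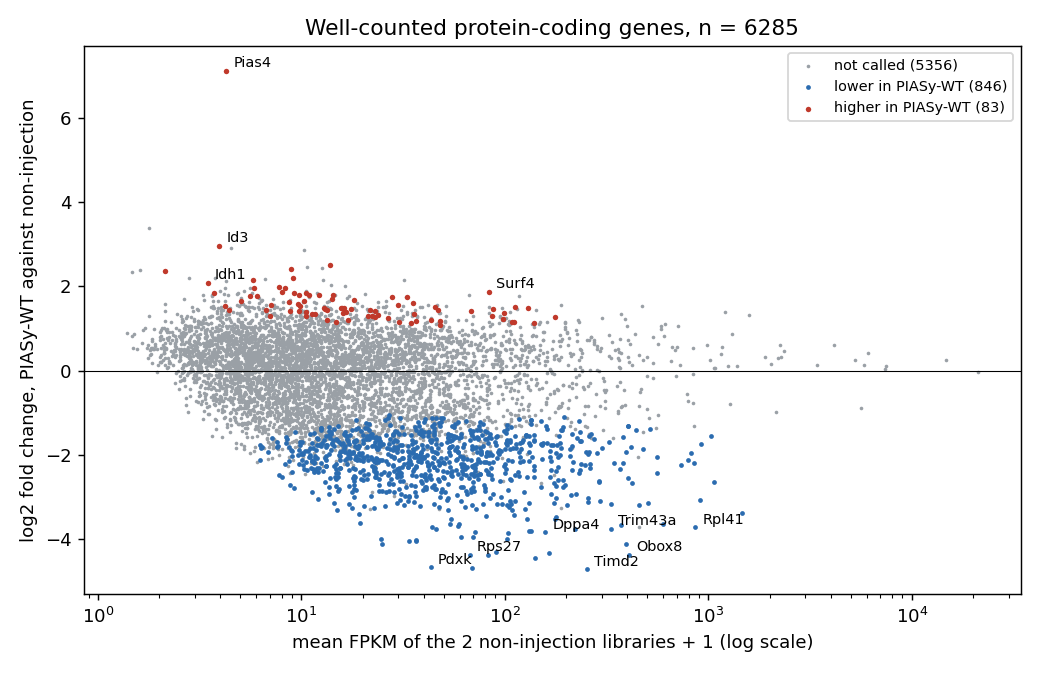
Log2 fold change of PIASy-WT against non-injection (vertical axis) by the mean FPKM of the 2 non-injection libraries plus 1 (horizontal log axis) for the 6285 well-counted protein-coding genes. Each point is a gene, with the 846 lower genes in blue, the 83 higher genes in red and the others in grey, and the blue points reach further from 0 than the red ones other than Pias4.

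The most negative changes belonged to genes of varied function. Timd2, a receptor of the TIM family, had 247 and 256 FPKM in non-injection and 5.0 and 14.3 FPKM in PIASy-WT (log2 fold change -4.72, standard error 0.46, adjusted P=0.0185). Pdxk, the kinase that makes active vitamin B6, went from 35.9 and 48.7 FPKM to 1.12 and 0.322 FPKM (log2 fold change -4.68, standard error 0.42, adjusted P=0.0185). Alppl2, an alkaline phosphatase of the early embryo, had 122 and 158 FPKM in the controls and 5.35 and 5.4 FPKM after injection (log2 fold change -4.46, standard error 0.42, adjusted P=0.0185). In each of these genes both control values lay far above both PIASy-WT values, which their choice by fold change nearly fixes. Meikin, a kinetochore protein of meiosis, was at 73.1 and 89.9 FPKM and then at 1.49 and 5.14 FPKM (log2 fold change -4.39, standard error 0.50, adjusted P=0.019). Guca1a, which encodes a guanylate cyclase activator, dropped from 337 and 449.8 FPKM to 21.7 and 21.0 FPKM (log2 fold change -4.13, standard error 0.40, adjusted P=0.0185). Ctsa, the lysosomal cathepsin A, fell from 21.8 and 26.3 FPKM to 0.480 and 0.369 FPKM, the latter from 3 and 2 fragments, so its change is a large one of uncertain size. Others among the 15 most negative included Gm2001, Obox8, Rps27, Gm6871, Cst7, Gm12790, Zmat5 and Exoc3l2, with log2 fold changes from -4.69 for Gm2001 to -4.00 for Exoc3l2.

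**Figure D2:**
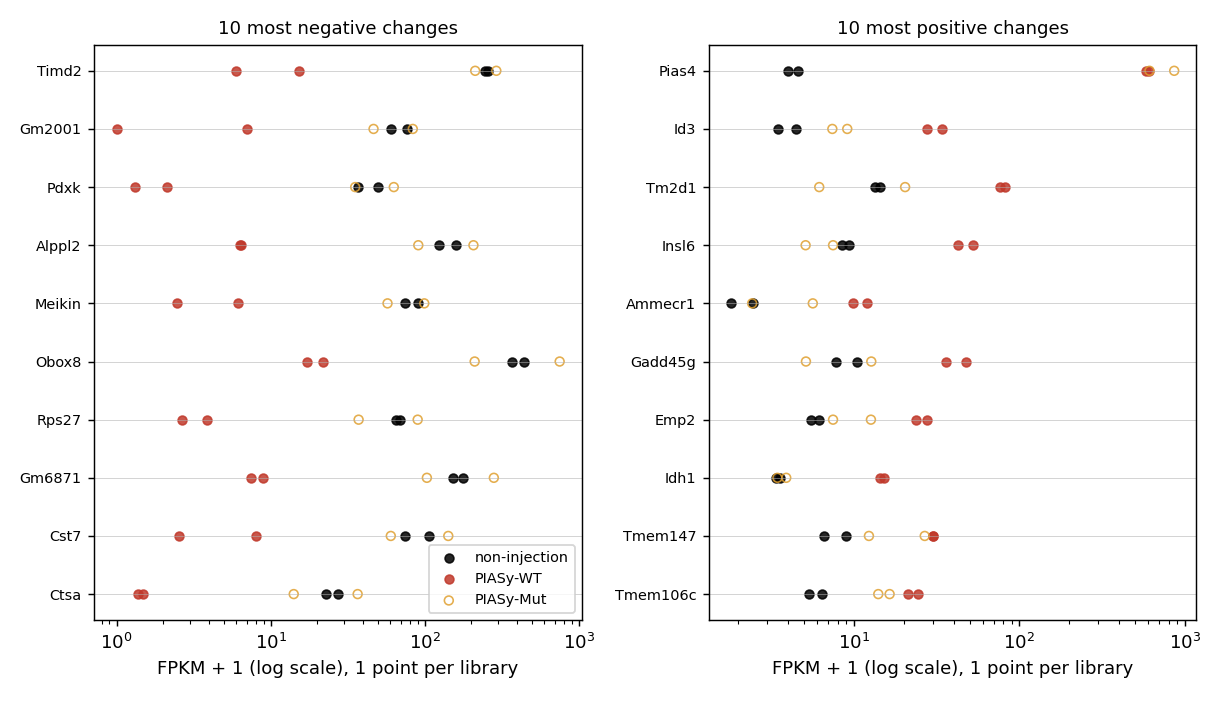
FPKM plus 1 (log axis) in every library for the 10 genes with the most negative and the 10 with the most positive log2 fold change among the called genes, 1 point per library. Black points are non-injection, red points PIASy-WT and open points PIASy-Mut. In each of the 20 genes the red points lie on 1 side of the black ones, as in every called gene.

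Genes for the ribosome fell in large numbers. Of 71 well-counted genes for cytosolic ribosomal proteins, the parts of the ribosome itself, 43 (60.6%) were lower and 0 were higher by limma (0 at an unadjusted P under 0.05 and 0 by voom), with a median log2 fold change of -1.83, beside -0.07 over all well-counted genes. Their summed level was 8868 and 8934 CPM in non-injection and 3427 and 2979 CPM in PIASy-WT. Rpl41 had 878 and 849 FPKM in non-injection and 83.3 and 49.9 FPKM in PIASy-WT (log2 fold change -3.72, standard error 0.37, adjusted P=0.0185). Rps27 had 64.7 and 67.8 FPKM without injection and 2.89 and 1.67 FPKM in PIASy-WT, and Rps25 had 66.8 and 61.1 FPKM without injection and 12.1 and 4.53 FPKM in PIASy-WT. All 3 were separated between the groups with wide gaps, which their choice among called genes with large changes nearly fixes. The fold change was below 0 in 69 of the 71 genes, and the most abundant one, Rps27l, had 1135 and 1182 FPKM in non-injection and 1479 and 1591 FPKM in PIASy-WT with no call (log2 fold change 0.41, adjusted P=0.318). Ribosomal protein genes have processed copies elsewhere in the genome, and reads shared with a copy were not counted, so their levels are less certain.

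Every well-counted gene for ribosome biogenesis and the nucleolus, where ribosomes are assembled, had a negative fold change (60 of 60), and 32 (53.3%) passed the test. Their median log2 fold change was -1.86, and their summed level was 10329.7 and 11150.0 CPM in non-injection and 3251 and 2869 CPM in PIASy-WT. Nifk, a nucleolar partner of the proliferation marker Ki-67, had 237 and 276 FPKM in non-injection and 44.5 and 20.8 FPKM in PIASy-WT (log2 fold change -3.03, standard error 0.49, adjusted P=0.0262). Nip7, which helps to process pre-rRNA, went from 78.0 and 80.5 FPKM to 11.8 and 9.45 FPKM (log2 fold change -2.79, standard error 0.46, adjusted P=0.027). Ddx56 and Ddx18, RNA helicases of ribosome assembly, had log2 fold changes of -2.93 and -2.77. The PIASy-WT pools of Ddx18 lay apart, at 8.51 and 1.40 FPKM, with both under the 28.3 and 35.3 FPKM of the controls.

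Translation factors and tRNA synthetases fell in part. Of 54 initiation and elongation factor genes, 13 (24.1%) were lower and 0 were higher by limma (1 at an unadjusted P under 0.05 and 1 by voom), with a median log2 fold change of -0.59, and the 3 lowest were subunits of the scaffold eIF3. Eif3g had 48.8 and 46.8 FPKM in non-injection and 6.46 and 4.82 FPKM in PIASy-WT (log2 fold change -2.89, standard error 0.51, adjusted P=0.0295), while Eif3c and Eif3m had log2 fold changes of -2.77 and -2.44. Among 12 genes for aminoacyl-tRNA synthetases, which load amino acids onto tRNA, 3 (25%) fell. They were Rars (42.9 and 63.6 FPKM against 3.97 and 3.23 FPKM, log2 fold change -3.54), Hars (-2.89) and Iars (-1.12). Of 53 genes for mitochondrial ribosomal proteins, 7 (13.2%) were lower, a share close to that of all well-counted genes, with a median of -0.39, and Mrps6 was the lowest of them (log2 fold change -3.44, standard error 0.43, adjusted P=0.0207).

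Promoter sequences were compared because ribosome genes moved together, and 9 motifs were searched on both strands. RefSeq promoters (GRCm38.p6, from 250 bases before to 50 after the annotated start) matched 4999 of the 6285 genes, 653 of the 846 lower genes and 63 of the 83 higher genes by symbol. The shares for ribosome biogenesis genes rest on 52 promoters and those for cytosolic ribosomal proteins on 54. The letters CCGGAAG, the core of a site for ETS factors, stood on either strand in 38.5% of the promoters of ribosome biogenesis genes and 38.9% of those of cytosolic ribosomal proteins, in 26.0% of those of all lower genes and in 12.7% of those of higher genes. The share was 20.9% over all well-counted genes and 9.12% over 27025 promoters of the whole RefSeq table. The letters TAATCC, read by some homeodomain factors, stood in 17.3% of the promoters of biogenesis genes, 7.41% of those of ribosomal proteins, 9.19% of those of lower genes, 6.12% over all well-counted genes and 7.16% over the whole table. For the E box CACGTG the share was 15.4% in biogenesis genes, 7.41% in ribosomal proteins and 10.6% over all well-counted genes. For the other 6 the share in biogenesis genes and over all well-counted genes was 3.85% and 6.58% for the TATA box (TATAAA), 42.3% and 40.8% for the CCAAT box (by its own letters), 73.1% and 65.3% for the GC box (GGGCGG), 0.0% and 4.48% for an AP-1 site (TGANTCA), 5.77% and 7.58% for an NRF1 site (GCATGCG), and 13.5% and 9.50% for a YY1 site (ATGGCGG). The stretch of 110 bases just before the start is shown for the 3 lowest biogenesis genes with a CCGGAAG match there, with the match in capitals.
Nip7 (chr8:107056767-107056876, plus strand): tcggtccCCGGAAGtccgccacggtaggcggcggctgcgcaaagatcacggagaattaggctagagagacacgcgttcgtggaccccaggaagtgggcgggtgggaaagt
Nhp2 (chr11:51619663-51619772, plus strand): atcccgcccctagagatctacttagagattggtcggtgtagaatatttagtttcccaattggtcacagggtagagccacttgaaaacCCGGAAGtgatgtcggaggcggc
Nolc1 (chr19:46075737-46075846, plus strand): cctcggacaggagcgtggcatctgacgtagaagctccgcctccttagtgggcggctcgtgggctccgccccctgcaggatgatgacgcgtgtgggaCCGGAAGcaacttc
The match began 103, 23 and 14 bases before the start, in that order.

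A second sequence feature was searched for near the start of the same genes. Messenger RNAs for ribosomal proteins are known to begin with a run of pyrimidines through which their translation is regulated. A C followed by 5 pyrimidines, on the sense strand between 5 bases before and 12 bases after the annotated start, was found in 40.7% of the promoters of cytosolic ribosomal proteins, in 5.77% of those of biogenesis genes, in 10.6% of those of lower genes and in 10.8% over all well-counted genes. For the 3 lowest ribosomal protein genes with such a run, 10 bases before and 20 after the start are shown with the run in capitals.
Rps27 (chr3:90213629-90213658, minus strand): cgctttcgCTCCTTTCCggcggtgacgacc
Rps23 (chr13:90923112-90923141, plus strand): cggctgggcggggCTTCCCgcaatgccttg
Rps10 (chr17:27635225-27635254, minus strand): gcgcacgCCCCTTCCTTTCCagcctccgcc
A match is a description of letters, and binding or translation was not measured in these data.

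Transcription machinery fell in part, with RNA polymerase subunits above and general transcription factors just below the share over all well-counted genes. Of 26 genes for subunits of the RNA polymerases, 12 (46.2%) were lower and 0 were higher by limma (0 at an unadjusted P under 0.05 and 0 by voom), with a median log2 fold change of -1.41. The called genes included subunits of RNA polymerase I, which makes ribosomal RNA, and of RNA polymerase III, which makes tRNA. Polr1e had 41.4 and 44.0 FPKM in non-injection and 0.774 and 5.13 FPKM in PIASy-WT (log2 fold change -3.73, standard error 0.67, adjusted P=0.0305), Cd3eap had a log2 fold change of -2.74 and Znrd1 of -2.25. Polr3b, of RNA polymerase III, had 20.3 and 13.8 FPKM without injection and 2.29 and 1.82 FPKM in PIASy-WT (log2 fold change -2.54). Among 40 genes for general transcription factors, 5 (12.5%) fell, with Gtf3c6 (-3.25) and Gtf3c4 (-2.42) from the factor that recruits RNA polymerase III, Taf1b (-2.72) from that of RNA polymerase I and Gtf2f1 (-2.21) from that of RNA polymerase II. Of 25 subunits of Mediator, the bridge between activators and RNA polymerase II, 5 (20%) fell. Med29 was the lowest of them, with 174 and 171 FPKM in non-injection and 21.8 and 15.6 FPKM in PIASy-WT.

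RNA processing and export showed the same direction. Among 72 splicing factor genes 17 (23.6%) were lower and 0 were higher by limma (3 at an unadjusted P under 0.05 and 0 by voom), with a median log2 fold change of -0.96. Sf3b6, which touches the branch point of the intron, went from 167 and 186 FPKM to 25.9 and 16.5 FPKM (log2 fold change -3.03, standard error 0.35, adjusted P=0.019), and Srsf2, Snrpa1 and Sf3a3 had log2 fold changes of -2.47, -2.28 and -2.25. Nucleoporins and transport receptors had 12 (23.5%) lower genes of 51, with a median of -0.81. Xpo1, the main export receptor for proteins, had 75.1 and 63.9 FPKM in the controls and 12.4 and 10.5 FPKM in PIASy-WT (log2 fold change -2.50, standard error 0.40, adjusted P=0.0261). Genes for deadenylation and decay, which clear stored messages, had 3 (8.82%) lower genes of 34 and a median of -0.25. The lower ones were the exosome genes Exosc2 (-1.75) and Exosc10 (-1.67) and the methyl-RNA reader Ythdf2 (-1.57). The summed level of this list was 8939.6 and 8834 CPM in non-injection and 15800.4 and 14473 CPM in PIASy-WT. Its most abundant gene, Btg4, a partner of the deadenylase named after its value was seen, had 1247 and 1168 FPKM without injection and 3354 and 3020.2 FPKM in PIASy-WT with no call (log2 fold change 1.40, adjusted P=0.106).

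**Figure D3:**
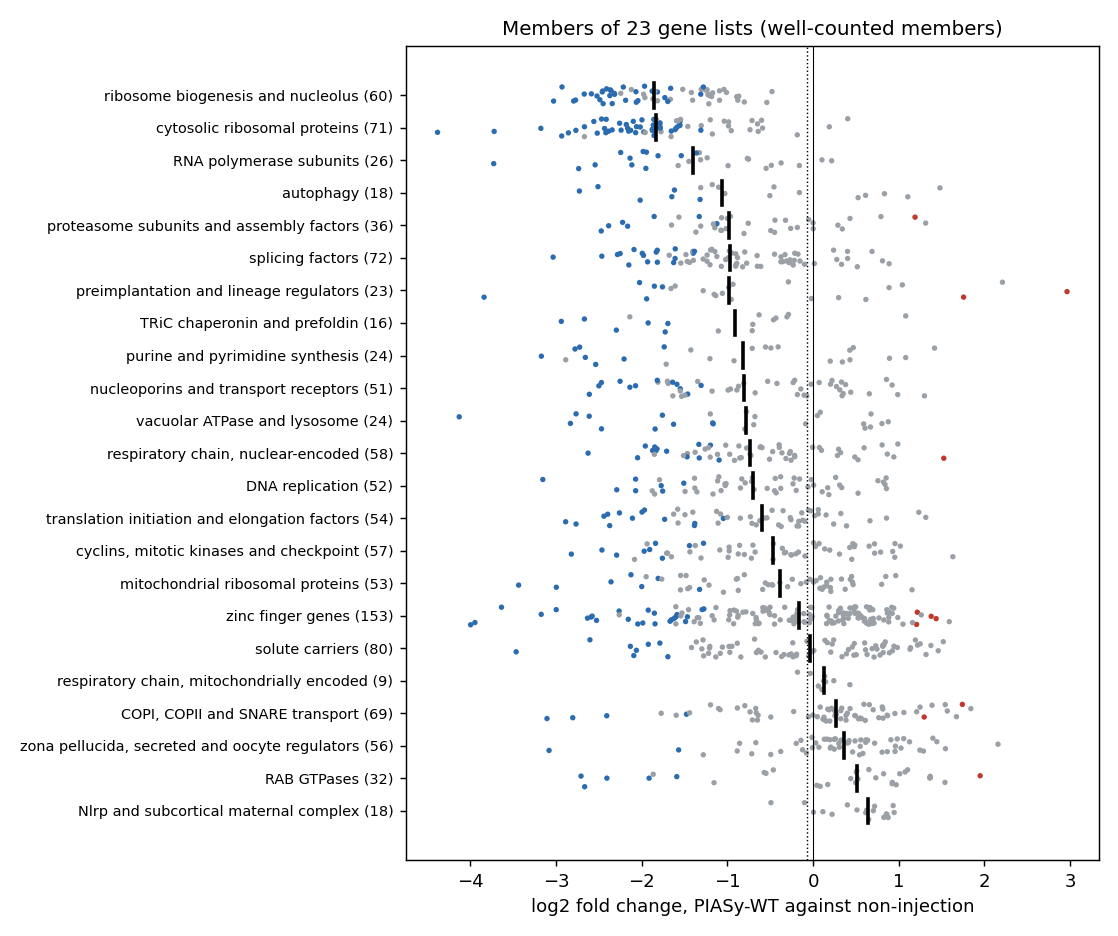
Log2 fold change of PIASy-WT against non-injection for the well-counted members of 23 gene lists, with the number of members in brackets. Each point is a gene (blue lower, red higher, grey not called), the bar is the median of the list and the dotted line the median of all well-counted genes at -0.07, and the bars run from -1.86 for ribosome biogenesis to 0.64 for Nlrp and subcortical maternal complex genes.

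Protein folding and turnover lists ranged from below to above the share of lower genes over all well-counted genes. The 36 genes for proteasome subunits and assembly factors had 7 (19.4%) lower, 1 (2.78%) higher and a median of -0.98. Psmd14, the deubiquitinase of the proteasome lid, had 50.4 and 55.8 FPKM in non-injection and 9.90 and 7.71 FPKM in PIASy-WT (log2 fold change -2.47, standard error 0.36, adjusted P=0.0241). Psmg1, a chaperone that helps to build the proteasome and not a part of the finished one, rose from 14.2 and 17.8 FPKM to 38.2 and 36.9 FPKM (log2 fold change 1.19, standard error 0.28, adjusted P=0.0481). Of 16 genes for the TRiC chaperonin and prefoldin, which fold tubulin and actin, 6 (37.5%) fell, among them Pfdn6 (-2.94) and Cct3 (-2.30). Of 46 heat shock proteins and co-chaperones, 10 (21.7%) fell and the median was -0.21 (-0.0009 under quantile normalization, -0.11 without non-injection 2 or PIASy-WT 1, and -0.32 without non-injection 1), with Bag5 the lowest of the called ones (44.1 and 58.9 FPKM against 5.11 and 3.47 FPKM). Unfolded protein response genes had 4 (18.2%) lower of 22, including the phosphatase subunits Ppp1r15a (-2.47) and Ppp1r15b (-2.27). Ubiquitin-conjugating enzymes had 2 (9.52%) lower of 21 and a median of 0.03, which ran from -0.08 to 0.27 over the alternatives. F-box proteins, which choose targets of a ubiquitin ligase, had 4 (9.76%) lower of 41 and a median of 0.14. The fold change was above 0 in 25 of these 41 genes. Both shares were below the 13.5% of all well-counted genes. Fbxo15, a gene of early embryos and stem cells, was the lowest F-box gene, at 283 and 305 FPKM and then 41.8 and 26.4 FPKM (log2 fold change -3.11, standard error 0.37, adjusted P=0.0191).

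Lysosome and autophagy genes fell in part. Of 24 genes for the vacuolar ATPase and lysosome, 10 (41.7%) fell and 0 rose by limma (1 at an unadjusted P under 0.05 and 0 by voom), with a median log2 fold change of -0.79. The called ones were led by lysosomal proteins, with Ctsa at -4.13, Ctsc at -2.83, Ctsb at -2.77 and the membrane protein Lamp2 at -2.61. Ctsb had 41.9 and 44.0 FPKM in non-injection and 6.86 and 4.31 FPKM in PIASy-WT. Of 18 autophagy genes, 6 (33.3%) fell, and 4 of these encode the ubiquitin-like proteins that coat the autophagosome. Gabarapl2 had 90.5 and 65.8 FPKM without injection and 13.0 and 8.98 FPKM in PIASy-WT (log2 fold change -2.73, standard error 0.38, adjusted P=0.0227), Map1lc3b had 84.9 and 85.3 FPKM without injection and 26.2 and 15.6 FPKM in PIASy-WT (log2 fold change -2.02), and Gabarap and Map1lc3a had log2 fold changes of -1.62 and -1.32. The last pair was added to the named genes after their values were seen. In 5 of the 18 genes the fold change was above 0 with no limma call, while voom called 2 genes of the list higher and 8 lower, and 2 were higher and 10 lower at an unadjusted P under 0.05.

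Mitochondrial proteins are encoded in the nucleus and in the mitochondrial genome. Of 58 nuclear genes for the respiratory chain, 13 (22.4%) fell and 1 (1.72%) rose, with a median log2 fold change of -0.73. Uqcrq of complex III fell from 128 and 143 FPKM to 37.1 and 27.6 FPKM (log2 fold change -2.05, standard error 0.33, adjusted P=0.027), and Ndufa10 of complex I rose from 10.6 and 7.17 FPKM to 25.6 and 28.5 FPKM (log2 fold change 1.53, standard error 0.34, adjusted P=0.0452). Of the 9 genes in the mitochondrial genome, 0 passed the limma test in either direction. At an unadjusted P under 0.05 and by voom there were 0 as well. The median of these was 0.12, and it was -0.17 without PIASy-WT 2 and 0.00 under quantile normalization. It was 0.37 without PIASy-WT 1 and 0.08 without non-injection 1 or non-injection 2. The mitochondrial genome held 6.40% and 6.47% of the fragments in non-injection and 5.82% and 8.14% in PIASy-WT, which overlapped. Import genes had 5 (19.2%) lower of 26. These were Timm10 (-3.53) with Tomm22 (-2.87), Tomm5 (-2.58), Tomm7 (-2.58) and Tomm20 (-1.87), where the Tomm proteins belong to the import complex of the outer membrane. Tomm20 was named after its value was seen. The median of that list was -0.07 and changed sign to 0.13 under quantile normalization and to 0.06 without PIASy-WT 2, and it was -0.24 without PIASy-WT 1 and -0.12 without non-injection 1.

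Metabolism was touched unevenly. Purine and pyrimidine synthesis had 7 (29.2%) lower genes of 24 (median log2 fold change -0.82). Prps1, which makes the ribose phosphate donor for nucleotides, was abundant in the controls at 1097 and 1024 FPKM and stood at 236 and 118 FPKM in PIASy-WT (log2 fold change -2.66, standard error 0.48, adjusted P=0.0305), and Adsl, of purine synthesis, had a log2 fold change of -3.17. Amino acid and one-carbon genes had 5 (27.8%) lower of 18, including Mat2a (-3.08), which makes the methyl donor of the cell, and Psat1 (-2.56) of serine synthesis. In the citrate cycle list of 19, 1 (5.26%) fell and 1 (5.26%) rose. Of these, Idh3g of the mitochondrial cycle fell (62.7 and 76.3 FPKM against 22.3 and 8.37 FPKM, log2 fold change -2.25) and Idh1, the cytosolic enzyme, rose from 2.38 and 2.55 FPKM to 13.3 and 14.1 FPKM (log2 fold change 2.09, standard error 0.33, adjusted P=0.0261). Glycolysis and pyruvate genes had 2 (11.8%) lower of 17, Mpc2 (-1.44) and Aldoa (-1.33). Cholesterol and fatty acid synthesis had 2 (12.5%) of 16, Elovl6 (-1.80) and Fdft1 (-1.53). Of 26 redox genes 3 (11.5%) fell, and the metallothionein gene Mt1, at 859 and 843 FPKM in non-injection and 227 and 149 FPKM in PIASy-WT, was the lowest of them (log2 fold change -2.20, standard error 0.36, adjusted P=0.0267). Of 80 solute carriers 8 (10%) fell, beside 13.5% of all well-counted genes, and the thiamine transporter Slc19a3 had the lowest value (-3.46).

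Genes for the cell cycle and chromosomes mostly had shares of lower genes near or a little above that of all well-counted genes. In DNA replication, 7 (13.5%) of 52 genes fell and 0 rose by limma (4 at an unadjusted P under 0.05 and 0 by voom), with a median log2 fold change of -0.70. Cdc45, part of the replicative helicase, had 118 and 144 FPKM without injection and 19.4 and 9.66 FPKM in PIASy-WT (log2 fold change -3.15), and Gins1, of the same complex, had a log2 fold change of -2.29. Among 57 cyclins, mitotic kinases and checkpoint genes 9 (15.8%) fell. Cdk1, the kinase that drives entry into mitosis, had 182 and 181 FPKM in the controls and 42.1 and 31.2 FPKM in PIASy-WT (log2 fold change -2.29, standard error 0.28, adjusted P=0.0207), and Cdc25c, the phosphatase that activates it, had a log2 fold change of -2.46. Both values of Cdk1 in PIASy-WT were far under both controls, and the groups were separated in every called gene. Kinetochore, cohesin and condensin genes had 11 (18.6%) lower of 59 (median -0.56). Cenpa, the histone of the centromere, went from 72.3 and 77.6 FPKM to 15.6 and 15.9 FPKM (log2 fold change -2.18, standard error 0.31, adjusted P=0.0236), and Cenpt, Ska1 and Oip5 had -2.88, -2.62 and -2.51. Of 44 DNA damage genes 7 (15.9%) fell, Ercc1 (-2.97) and the kinase Chek2 (-2.41) among them. The p53 target list had 1 (6.67%) lower gene of 15, Tigar (48.5 and 76.4 FPKM against 8.87 and 3.33 FPKM), and the BCL2 family of cell death regulators had 0 of 8 called by limma, with 3 lower at an unadjusted P under 0.05 and 1 lower by voom. Tubulins, kinesins and dyneins had 9 (16.7%) lower of 54, with the tubulin folding cofactor Tbcb at -2.93 and the kinesins Kif22 and Kif11 at -2.47 and -2.30.

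Chromatin lists ranged from below to above the share of lower genes over all well-counted genes. H3K9 methylation and heterochromatin genes had 1 (5.88%) lower of 17 (median log2 fold change -0.56), the remodeller Hells, which had 23.4 and 33.4 FPKM in non-injection and 10.6 and 8.57 FPKM in PIASy-WT (log2 fold change -1.46, standard error 0.30, adjusted P=0.0379). Of 16 histone demethylases 4 (25%) fell. Kdm4c, which acts on H3K9, had 19.1 and 19.4 FPKM without injection and 1.81 and 3.74 FPKM in PIASy-WT (log2 fold change -2.47, standard error 0.40, adjusted P=0.027), and Kdm5b, which acts on H3K4, had a log2 fold change of -1.87. Chromatin remodelling subunits had 5 (15.2%) lower of 33, with Actl6a at -1.73 and Smarca5 at -1.51. Of 7 histone genes 1 (14.3%) fell, the variant gene H2afv (-1.85). Replication-dependent histone messages lack the poly(A) tail on which the cDNA was primed.

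Zinc finger genes moved in both directions. Of 153 of them 25 (16.3%) fell and 4 rose (median log2 fold change -0.17, which was 0.06 under quantile normalization). That median was -0.07 without non-injection 1 or non-injection 2, -0.08 without PIASy-WT 2 and -0.23 without PIASy-WT 1. Zfp977, Zfp791 and Zfp707 had the lowest values, at -4.00, -3.95 and -3.64. Zfp791 had 48.5 and 71.7 FPKM in non-injection and 1.79 and 4.43 FPKM in PIASy-WT. The 4 higher genes were Zfp931 (1.44), Zfp946 (1.38), Zfp951 (1.22) and Zfp932 (1.21), and Zfp951 had 101 and 92.4 FPKM without injection and 206 and 248 FPKM in PIASy-WT. The 4 were 2.61% of the list, beside 1.32% of all well-counted genes, and the share that fell was near the 13.5% of all.

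Families of the early embryo held members that fell beside members with no call. The Obox homeobox genes had 7 well-counted members, of which 3 (42.9%) fell. Obox8 had 441 and 369 FPKM in non-injection and 16.2 and 20.9 FPKM in PIASy-WT (log2 fold change -4.38, standard error 0.58, adjusted P=0.021). Obox3 had 148 and 118 FPKM without injection and 10.6 and 6.82 FPKM in PIASy-WT (log2 fold change -3.80, standard error 0.34, adjusted P=0.0185), and Obox6 had 601 and 595 FPKM without injection and 51.6 and 42.7 FPKM in PIASy-WT (log2 fold change -3.64, standard error 0.36, adjusted P=0.0185). The other 4, Obox1, Obox2, Obox5 and Obox7, had log2 fold changes between 0.11 for Obox5 and 0.93 for Obox1 with no call, and Obox5, at 1542 and 943 FPKM in non-injection and 1583 and 1063 FPKM in PIASy-WT, was the most abundant of the family. The 3 that fell are thus apart from the 4 others by more than 3 on the log2 scale, and whether the fold changes differ between members was not tested. The 4 others were named after their values were seen. Reads that fit several Obox copies were not counted, so the levels of this family are uncertain.

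The Trim43 genes, 3 close relatives within the TRIM family, all fell. Trim43a went from 297 and 365 FPKM to 30.8 and 17.5 FPKM (log2 fold change -3.77, standard error 0.37, adjusted P=0.0185), Trim43b from 467 and 271 FPKM to 38.4 and 19.2 FPKM (log2 fold change -3.66, standard error 0.51, adjusted P=0.0236) and Trim43c from 162 and 87.5 FPKM to 13.6 and 9.18 FPKM (log2 fold change -3.30, standard error 0.46, adjusted P=0.0236). Of the 18 well-counted TRIM genes these were the 3 (16.7%) lower ones, and 0 rose by limma (3 at an unadjusted P under 0.05 and 2 by voom). In the PRAME family, 2 (14.3%) of 14 fell and 0 rose by limma, while 3 (21.4%) rose and 3 (21.4%) fell by voom, and 4 (28.6%) were higher and 5 (35.7%) lower at an unadjusted P under 0.05. The summed level of the family was 13847 and 11574 CPM in non-injection and 19010.0 and 15339 CPM in PIASy-WT. Pramel7 had 53.3 and 61.3 FPKM without injection and 4.60 and 8.97 FPKM in PIASy-WT (log2 fold change -2.96, standard error 0.38, adjusted P=0.021), and Pramel6 had 69.3 and 88.3 FPKM without injection and 6.52 and 14.6 FPKM in PIASy-WT (log2 fold change -2.87, standard error 0.40, adjusted P=0.0227). Oog3, the most abundant member, stood at 6715 and 5518 FPKM in non-injection and 9303 and 7223 FPKM in PIASy-WT with no call (log2 fold change 0.43, adjusted P=0.437). In the list of Tdpoz and Speer families, 2 (33.3%) of 6 fell, Tdpoz1 (-2.15) and Tdpoz4 (-1.69). Among 17 genes of the brief two-cell burst, 1 (5.88%) passed the limma test, while 1 rose and 2 fell by voom, and 1 was higher and 5 lower at an unadjusted P under 0.05. The gene was Usp17lb, with 387 and 420.3 FPKM without injection and 66.7 and 69.7 FPKM in PIASy-WT (log2 fold change -2.55, standard error 0.26, adjusted P=0.0185), and the median of the list was -0.58. These families hold near-identical copies too, and their levels are uncertain in the same way.

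**Figure D4:**
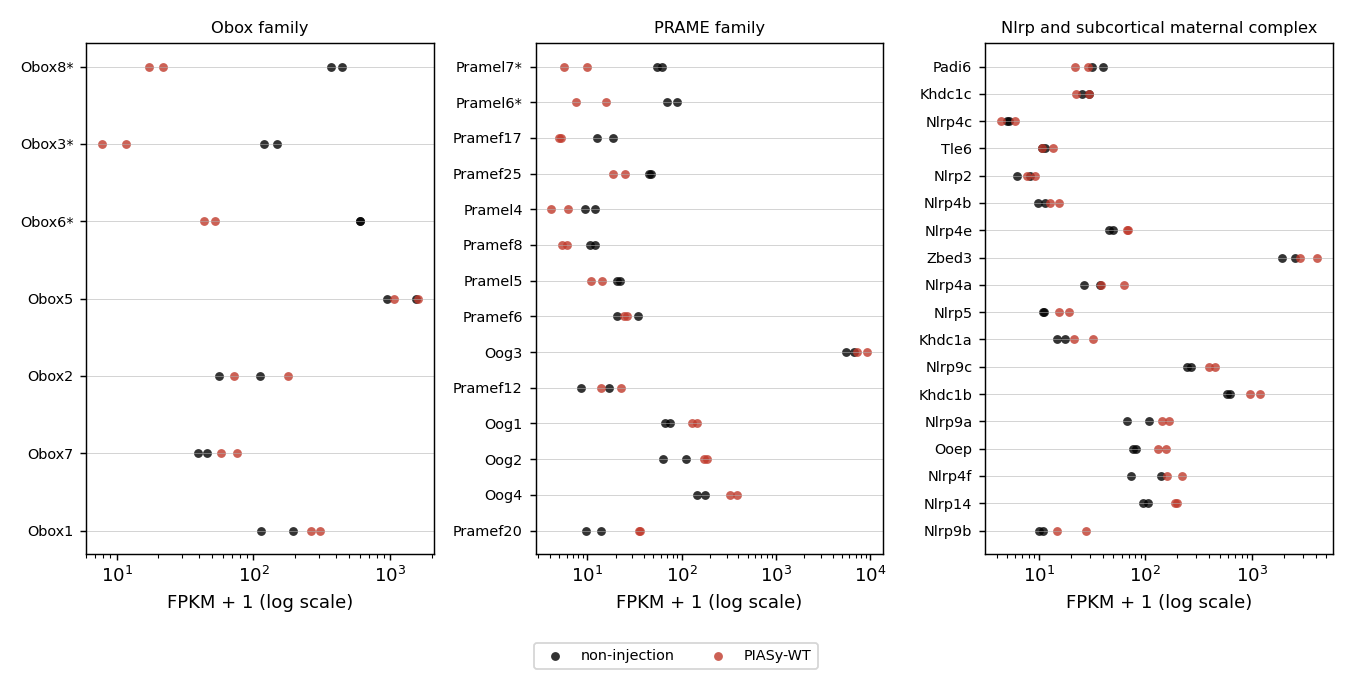
FPKM plus 1 (log axis) in each non-injection (black) and PIASy-WT (red) library for the well-counted members of 3 families, ordered from the most negative to the most positive log2 fold change, with called genes marked by a star. Obox8, Obox3, Obox6, Pramel7 and Pramel6 carry a star, and no Nlrp or subcortical maternal complex gene does.

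Regulators of lineage and pluripotency changed in both directions. Of 23 well-counted ones, 5 (21.7%) fell and 2 (8.70%) rose, with a median log2 fold change of -0.98. Dppa4, a chromatin factor of early embryos, had 152 and 162 FPKM in non-injection and 11.8 and 8.51 FPKM in PIASy-WT (log2 fold change -3.84, standard error 0.44, adjusted P=0.019). Nr5a2, a nuclear receptor, had 13.9 and 7.50 FPKM without injection and 1.92 and 1.62 FPKM in PIASy-WT (log2 fold change -2.02, standard error 0.45, adjusted P=0.0442), and Nfyb, a subunit of the CCAAT-binding factor, had 48.0 and 67.5 FPKM without injection and 17.7 and 11.2 FPKM in PIASy-WT (log2 fold change -1.94). Dppa5a, an RNA-binding protein of pluripotent cells, fell from 481 and 467 FPKM to 154 and 111 FPKM (log2 fold change -1.85, standard error 0.39, adjusted P=0.0401). The members that rose were inhibitors of basic helix-loop-helix factors. Id3 went from 2.46 and 3.46 FPKM, on 6 and 7 fragments, to 32.9 and 26.7 FPKM, on 78 and 55 fragments (log2 fold change 2.96, standard error 0.32, adjusted P=0.019). Id2 went from 39.1 and 25 FPKM to 110.5 and 106 FPKM (log2 fold change 1.76, standard error 0.30, adjusted P=0.0279). Their relative Id1, named after its value was seen, had 36.0 and 38.1 FPKM without injection and 14.3 and 15 FPKM in PIASy-WT with no call (log2 fold change -1.28, adjusted P=0.115).

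Maternal genes mostly had small fold changes above 0, and few passed the test. Of 18 Nlrp and subcortical maternal complex genes, which act in the egg and the first divisions, 0 passed the limma test in either direction, with 3 higher at an unadjusted P under 0.05 and 0 by voom. In 13 of them both PIASy-WT libraries lay above both controls, as they did in 35.2% of all well-counted genes, and the median log2 fold change was 0.64 with 16 values above 0. Khdc1b had 620.1 and 585 FPKM in non-injection and 1199 and 953 FPKM in PIASy-WT, which did not overlap (log2 fold change 0.83, adjusted P=0.134). In 56 genes for the zona pellucida, secreted factors and oocyte regulators, 2 (3.57%) fell and 0 rose by limma, while 8 (14.3%) rose and 2 (3.57%) fell by voom, and 13 (23.2%) were higher and 5 (8.93%) lower at an unadjusted P under 0.05. The median was 0.36, with 41 above 0. Their summed level was 66539 and 59424 CPM in non-injection and 92155 and 82373 CPM in PIASy-WT, which did not overlap. The voom shares stand beside 7.32% higher and 22.7% lower over all well-counted genes, and the unadjusted ones beside 12.3% and 27.8%. Zp3, a zona protein, fell from 70.9 and 73.5 FPKM to 25.1 and 22.4 FPKM (log2 fold change -1.57, standard error 0.23, adjusted P=0.0241), and Rfpl4b, an oocyte gene, fell from 959 and 860.0 FPKM to 163 and 69.3 FPKM (log2 fold change -3.08, standard error 0.44, adjusted P=0.024).

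Of the 83 higher genes 13 (15.7%) were in any of the 57 lists, beside 354 (41.8%) of the 846 lower genes and 29.0% of all well-counted genes, and the lists were chosen with earlier results known. The 83 had a median log2 fold change of 1.48, and the highest after Pias4 was that of Id3. Tm2d1, a small membrane protein, had 12.4 and 13.4 FPKM in non-injection and 75.2 and 81.3 FPKM in PIASy-WT (log2 fold change 2.51, standard error 0.55, adjusted P=0.043). Insl6, of the insulin-relaxin family, had 8.28 and 7.49 FPKM without injection and 41.6 and 51.6 FPKM in PIASy-WT (log2 fold change 2.41, standard error 0.32, adjusted P=0.0211), and Gadd45g, a stress-induced gene, had 9.38 and 6.78 FPKM without injection and 46.3 and 34.9 FPKM in PIASy-WT (log2 fold change 2.20, standard error 0.48, adjusted P=0.0441). Emp2, a membrane protein of epithelia, had 4.48 and 5.14 FPKM without injection and 22.6 and 26.8 FPKM in PIASy-WT (log2 fold change 2.14). Stat4, a transcription factor of cytokine signalling, went from 6.44 and 12.6 FPKM to 27.9 and 44.7 FPKM (log2 fold change 1.85, standard error 0.41, adjusted P=0.0433). Its relative Stat6, named after its value was seen, went from 6.0 and 6.23 FPKM to 20.6 and 19.4 FPKM (log2 fold change 1.56, standard error 0.30, adjusted P=0.0348). Ammecr1, Tmem147, Tmem106c, Gnpda2 and Pofut2 completed the 15 most positive with Idh1, Rab32 and Surf4.

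Membrane traffic genes held called members in both directions and medians above 0. Of 32 genes for RAB GTPases, which direct vesicles, 2 (6.25%) rose and 5 (15.6%) fell by limma, while 8 (25%) rose and 6 (18.8%) fell by voom, and 11 (34.4%) were higher and 6 (18.8%) lower at an unadjusted P under 0.05. The median log2 fold change was 0.51, with 22 values above 0. Rab32 rose from 7.84 and 6.81 FPKM to 31.0 and 31.2 FPKM (log2 fold change 1.95, standard error 0.31, adjusted P=0.0261) and Rab2a from 91.4 and 105 FPKM to 229 and 282 FPKM (log2 fold change 1.37, standard error 0.30, adjusted P=0.043). Rab20, Rab39, Rab5a and Rab2b were the lowest of those that fell, with log2 fold changes of -2.71, -2.67, -2.41 and -1.91, so the paralogues Rab2a and Rab2b were called in opposite directions. Of 69 genes for coated vesicles and SNAREs, 2 (2.90%) rose and 4 (5.8%) fell by limma, while 7 (10.1%) rose and 7 (10.1%) fell by voom, and 10 (14.5%) were higher and 9 (13%) lower at an unadjusted P under 0.05. The median of that list was 0.27. Over all well-counted genes voom gave 7.32% higher and 22.7% lower, and an unadjusted P under 0.05 gave 12.3% and 27.8%, so the share of higher genes in the coated vesicle list was near that of all by both counts. Sec22a, of the endoplasmic reticulum, rose from 25.1 and 28.8 FPKM to 85.4 and 100.0 FPKM (log2 fold change 1.74, standard error 0.39, adjusted P=0.046), and Stx7, a syntaxin of endosomes, from 20 and 20.4 FPKM to 55.8 and 46.7 FPKM (log2 fold change 1.30, standard error 0.26, adjusted P=0.0361). Surf4, a cargo receptor of the endoplasmic reticulum outside these lists, rose from 83.4 and 82.2 FPKM to 282 and 331 FPKM (log2 fold change 1.87, standard error 0.41, adjusted P=0.043). Tmed6 (-3.10), Sec61a2 (-2.80), Tmed5 (-2.41) and Vps29 (-1.48) were the ones that fell.

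The share of called genes went down with gene length and up with coverage. Among the shortest of 4 equal classes of well-counted genes (207 to 2661 bases) 21.5% were lower and 2.54% higher, and in the longest (7267 bases and more) 5.47% were lower and 0.191% higher. The median length was 3084.5 bases for lower genes, 2771.0 for higher genes and 4460.0 for all well-counted ones. By mean fragments the share of lower genes went from 6.97% in the least covered of 4 classes to 17.9% in the most covered. Cytosolic ribosomal protein genes had a median length of 1726.0 bases, and 60.6% of them were lower, beside 21.5% in the shortest class. The part of length and coverage in the counts of any list, ribosomal proteins included, was not tested. Among the autosomes, the share of lower genes ran from 8.11% on chromosome 6 to 19.3% on chromosome 17, and it was 13.1% on the X chromosome (33 of 252 genes).

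**Figure D5:**
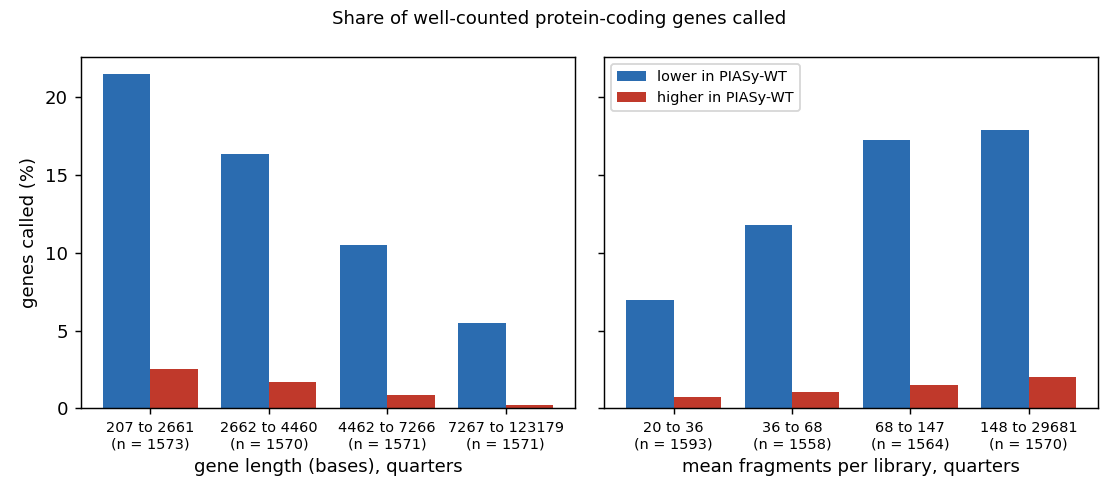
Share of well-counted protein-coding genes called lower (blue) and higher (red) in PIASy-WT, in percent, in 4 classes of gene length in bases (left) and of the mean number of fragments per library (right). The blue bars go from 21.5% to 5.47% with length and from 6.97% to 17.9% with fragments.

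The remaining lists held few called genes among their well-counted members. Of 41 actins, actin regulators and myosins, 2 (4.88%) fell, Actr6 (-2.48), an actin-related subunit of a chromatin remodeller, and Arpc1a (-2.14), of the complex that branches actin, and the median log2 fold change was 0.27. Of 12 keratins and junction genes 1 (8.33%) fell, the tight junction gene Cldn6, with 41.4 and 46.4 FPKM in non-injection and 14.0 and 19.1 FPKM in PIASy-WT (log2 fold change -1.37, standard error 0.27, adjusted P=0.0365). In the other 3 lists 0 well-counted genes passed the limma test. Below the count filter limma called 2 annexin and S100 genes, 3 olfactory and vomeronasal receptors and 1 interferon-stimulated gene. It also called 5 keratin and junction genes there. Of 2 annexins, 0 passed at an unadjusted P under 0.05 or by voom, and Anxa7 had a log2 fold change of 0.56 (adjusted P=0.197). Of 14 olfactory and vomeronasal receptors, 3 were lower and 2 higher at an unadjusted P under 0.05, and 1 was lower and 1 higher by voom. Of 6 interferon-stimulated genes, which respond to foreign RNA, 2 were lower and 1 was higher at an unadjusted P under 0.05 and the same counts were found by voom. Ifitm3, the most abundant of them, had 227 and 138 FPKM in non-injection and 233 and 191 FPKM in PIASy-WT, with no call (log2 fold change 0.25, adjusted P=0.728). Of 29 genes listed for cumulus and granulosa cells 7 were tested and 0 were well-counted. The 1 of the 7 that was called, Amhr2, was lower, on 22 and 17 fragments without injection and 3 and 4 in PIASy-WT. All the others tested had log2 fold changes above 0 with no call, from 0.18 for Pfkp to 1.05 for Tnfaip6. These genes were named after their values were seen.

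The libraries injected with PIASy-Mut give values for embryos that were injected at the same dose, and they share the non-injection controls with the comparison above. The median log2 fold change of PIASy-Mut against non-injection was -0.01 over the 846 lower genes, 0.49 over the 83 higher genes and 0.03 over all well-counted genes, where the choice of the called genes by the same controls also acts on these medians, and adjusted P was at most 0.05 by limma in 0 and 1 of them, the 1 being Pias4 (3 and 20 at an unadjusted P under 0.05). Rpl41 had 1056 and 628 FPKM in the PIASy-Mut libraries, Obox3 had 178 and 115 FPKM, Dppa4 had 269 and 109 FPKM and Cdk1 had 238 and 166 FPKM, while Id3 had 8.11 and 6.41 FPKM.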

How the data were processed

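RNA from pools of 5 two-cell embryos was amplified with SMART-Seq v4 and made into libraries with Nextera XT. The authors trimmed the reads with trim_galore, mapped them with STAR to mm10 and counted uniquely mapped fragments per gene with featureCounts; versions, annotation release and strand setting were not given in the sources used here, so overlapping and antisense genes cannot be told apart. The deposited values were FPKM, which the authors computed from these counts.

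Fragments were recovered as FPKM times gene length, divided by the smallest step of each library; 100% were whole within 0.01, and they served for depth, filters and voom. The test was limma 3.58.1 (R 4.3.3), lmFit and eBayes with trend, on log2(FPKM + 1) in all 6 libraries, with Benjamini-Hochberg adjustment over 14448 genes. A fold change is on that scale and understates the change of low genes. Total fragments ran from 871663 to 1363928 per library. Nothing in the labels says that the 2 libraries of a group came from separate matings, so P-values measure the spread between these libraries. The study used a count model, which was not the main test here because FPKM are not counts.

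On simulated data for PIASy-WT against non-injection with 200 changed genes, 0.0% were recovered at a log2 fold change of 1.5 (14718 genes), 19.5% at 2 (14668 genes) and 84.0% at 3 (14557 genes), and 11, 29 and 25 unchanged genes were called, 0 of them well-counted protein-coding ones. The simulated recovery does not carry over to the real calls, since the 83 well-counted higher genes had a median log2 fold change of 1.48.

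The members and lists were chosen with earlier results of these data known, and wrong symbol matches in the 57 lists were removed after the data were seen. Genes were named as the 15 most negative and the 15 most positive called genes whose groups did not overlap, the first 4 called per list and direction, and, where a list had none, its 2 most abundant; some of these are not reported here. Any other gene is marked as picked with its values in view. Alternatives were other pseudocounts, filters, scalings, libraries, voom and a replicate block. Promoter sequences are from RefSeq (GRCm38.p6).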

Additional observations from a re-analysis of the deposited data

How the results depend on the processing

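The 199 called genes among the 211 chosen by the naming rule kept their direction in all 17 alternatives, which their choice nearly fixes; 46 of them stayed called with no filter on low values, 138 without the trend, 171 with the replicate block, 171 and 178 with a pseudocount of 0.1 and 5, 175 with quantile normalization, 181 with median ratio scaling, 198 or 199 under the other alternatives that kept all 4 compared libraries, and 0 with any of these left out. Of list medians, 44 of 55 kept their sign; among the 11 others, zinc finger genes, TRIM proteins, solute carriers, histone genes and the lists for mitochondrial import and the mitochondrial genome turned or reached 0 under a scaling. Medians moved by over 1.5 times or changed sign in 35 lists with quantile normalization, 11 with median ratio scaling, 12 with a pseudocount of 5, 11 with FPKM of at least 5, 2 with a pseudocount of 0.1, 3 by voom and 13 to 17 without 1 of the 4 compared libraries. The counts of calls moved more. For well-counted genes (846 lower, 83 higher), the counts were 108 and 3 with no filter on low values, 504 and 20 without the trend, 462 and 8 at the stricter size of 2 (log2), 1297 and 381 in only the 4 libraries compared, 1429 and 460 by voom, and 1671 and 657 by voom in the 4 libraries. With FPKM of at least 5 there were 227 higher, and with quantile normalization 185 higher. For all genes tested (1171 lower, 299 higher), the same settings gave 154 and 16 with no filter, 762 and 191 without the trend, 693 and 122 at the stricter size, 1922 and 872 in the 4 libraries, 1912 and 806 by voom, and 2325 and 1146 by voom in the 4 libraries. A pseudocount of 5 gave 186 higher. Quantile normalization gave 448 higher genes, and the share of higher genes among the calls went from 20.3% to 30.7%. The causes of these moves were not tested. Leaving out 1 library gave 0 to 1946 lower and 0 to 858 higher genes of all tested, and 0 to 1320 lower and 0 to 378 higher well-counted ones; the values of 0 came from the 4 libraries compared, and voom was not run with a library left out. Voom in the 4 libraries and leaving out PIASy-Mut libraries were chosen after seeing the data.

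With the replicate number as a block, 710 well-counted genes were lower, 653 of them among the 846, and 59 were higher, while of all genes tested 968 were lower and 194 higher. The numbers give 2 pairs only. The column labels run through the first library of each group and then the second, and do not say what these share. Deviations from the group means over 6830 genes correlated at 0.242 between non-injection 1 and PIASy-WT 1. The correlation was 0.206 between PIASy-Mut 1 and PIASy-WT 1 and 0.008 between non-injection 1 and PIASy-Mut 1. In the simulations with 200 changed genes, 0.0% of log2 changes of 1.5 and 84.0% of those of 3 were recovered, beside 11 and 25 calls of unchanged genes. This recovery belongs to that setting and does not carry over to the real calls.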

Other observations

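Genes of other types were called in both directions, beside 8.1% lower and 2.07% higher over all genes tested. Of 1016 lincRNA genes tested, 37 fell (3.64%) and 55 rose (5.41%) after PIASy-WT injection, with a median log2 fold change of 0.37. Of 1300 processed pseudogenes 114 were lower (8.77%) and 29 higher (2.23%), close to all genes tested, and of 212 unprocessed pseudogenes 32 were lower (15.1%) and 7 higher (3.30%). Of 501 antisense genes 22 were lower (4.39%) and 19 higher (3.79%). These genes had few fragments, and whether the types differ was not tested.

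Called genes with a shared name stem were counted, and the stems given here were picked from 266 for their counts of calls, beside 13.5% lower and 1.32% higher over all well-counted genes. All 4 Snapc genes, whose products start the transcription of small nuclear RNA, were lower, as were 4 of 5 Rpp genes, which encode subunits of ribonuclease P, and 4 of 5 Tomm genes. Among 4 Stat genes 2 were higher, and among 4 Id genes 2 were higher. Runs of lower genes that lie close together were built from called lower genes alone. The one with the most members lay on chromosome 12, from 87494721 to 88084131, and held 7 predicted genes. Genes between them that were not called lower were skipped, so the run gives no share of genes that fell. Reads shared between close copies were not counted, so the levels of these 7 genes are uncertain.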
